A study of Mus musculus with 26 samples.

Results

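Migrating neurons of the embryonic mouse cortex are young excitatory neurons that have left the division zones and travel along radial glia towards the cortical plate. Among the nuclei of E15.5 cortex analysed here they were chosen by their own transcripts. A nucleus was taken when the unique molecular identifiers (UMIs, each marking 1 captured RNA molecule) of Sema3c, Unc5d, Ndst3, Pdzrn3 and Rnd2 summed to at least 4, Eomes had at most 1, and Gad1, Gad2, Hs3st4, Htr1f, Fezf2, Inhba, Top2a and Mki67 had none. In all, 2478 of 43456 nuclei met this rule, between 206 and 393 in each of 8 libraries.

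A newborn projection neuron passes from an Eomes-positive intermediate progenitor through a multipolar stage, in which it extends and withdraws short processes, to a bipolar stage in which it climbs the radial glial fibre. Guidance receptors, small GTPases and the microtubule cytoskeleton carry this movement, and identity factors such as Bcl11b, which marks neurons that project below the cortex, set the later fate. Sema3c encodes a secreted semaphorin, Unc5d a netrin receptor that also binds FLRT proteins, Ndst3 a heparan sulfate sulfotransferase, Pdzrn3 a ubiquitin ligase and Rnd2 an atypical small GTPase that acts in radial migration.

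The study asked whether the fetal cortical response to maternal immune activation (MIA) needs microglia. Pregnant C57Bl/6N mice received saline or poly(I:C), an RNA duplex made in the laboratory that mimics a viral genome, by intraperitoneal injection at E12.5, and nuclei of the somatosensory cortex of male embryos were sorted at E15.5 and counted with a 3' droplet method. The 4 groups were wild type (WT) after saline, WT after MIA, Csf1r-null after saline and Csf1r-null after MIA, with 2 libraries each, where Csf1r-null embryos lack both copies of Csf1r in every cell, the gene for a receptor that microglia need to survive. The embryos came from 4 dams, and the labels do not tie a library to a dam or say which libraries are littermates. P-values therefore measure the spread between libraries, part of which may be technical. Saline or poly(I:C) was given to the dam, so libraries of the same treatment may share a dam. The tests and each n count libraries, so a difference between MIA and saline cannot be separated from a difference between dams.

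The deleted gene and 12 microglial markers were read over all nuclei of each library. Csf1r had 23 and 11 UMIs in the WT saline libraries, 23 and 1 in those labelled WT MIA, 4 and 10 in those labelled Csf1r-null saline, and 2 and 1 in Csf1r-null MIA. The microglial markers summed to 37.4 and 23.0 UMIs per 1000000 counted (CPM) in WT saline, 19.1 and 4.47 in WT MIA, 6.75 and 20.3 in Csf1r-null saline, and 4.32 and 6.39 in Csf1r-null MIA. The library labelled WT MIA 2 therefore had as few microglial transcripts as null libraries, and the library labelled Csf1r-null saline 2 as many as WT libraries, so counts of calls, the medians of 7 lists, the share of migrating neurons and the calls of named genes are also given without both, called the doubted libraries. The study's methods describe genotyping of every embryo from tail DNA and staining of cortex for microglia, and the labels were kept as given. Nuclei numbered 4552 to 6198 per library, and any pair of libraries shared 0 to 14 cell barcodes.

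In the migrating neurons the median depth per library was 2090 to 3049 UMIs and 1182 to 1688.5 genes per nucleus, against 1445 to 2952 UMIs in all other nuclei. Their summed UMIs came to 453859 in the shallowest library and 1198952 in the deepest. Of 3707 nuclei whose markers reached 4 UMIs, 66.8% were kept. Fezf2 excluded the most, 631 nuclei, followed by Top2a or Mki67 with 388 and Eomes with 218, and a nucleus could be excluded by several genes.

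The 5 marker genes chose the nuclei, so their levels are a description. Unc5d was found in 70.7% to 83.2% of migrating neurons per library, Rnd2 in 58.4% to 86.8%, Sema3c in 49.8% to 76.5%, Ndst3 in 31.4% to 47.9% and Pdzrn3 in 27.2% to 44.1%. The most common nucleus held 3 of the 5 genes (median over libraries 44.2%), while 3.21% held all 5 and 4.14% rested on 1 gene alone. Against all other nuclei of the same library, the median log2 difference in CPM was 3.16 for Sema3c, 3.07 for Unc5d and Ndst3, 2.90 for Pdzrn3 and 2.37 for Rnd2. Rnd2 was the member of the set that followed the replicate number: normalized CPM in replicate 2 (850, 689, 633 and 807) all lay above replicate 1 (324, 388, 371 and 461), as they did for 4.66% of the 9189 genes tested.

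Nuclei just inside and just outside the threshold were close in the genes that the rule did not use. The 916 nuclei with a marker sum of 4 had a median of 823 CPM of Nrp1, 179 of Neurod1 and 312 of Bcl11b. The 1393 nuclei with a sum of 3 that met every other condition had 721, 196 and 280, at similar median depths of 2183.75 and 2155 UMIs. No gap separated the nuclei on either side.

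Markers of migrating neurons outside the rule were compared with the rest of the nuclei to check the label. Of 11 such markers, 9 were higher in the migrating neurons in all 8 libraries (Neurod1, Neurod2, Neurod6, Nhlh1, Nrn1, Sstr2, Nrp1, Cntn2 and Dcx), and 2 were lower in all 8, the proneural factor Neurog2 and the neuronal tubulin Tubb3. Of all 7804 genes with at least 20 CPM, 11.5% were higher and 15.9% lower in all 8 libraries. Nuclei were chosen by gene levels, so these differences are a description with no test. Markers of other cell types were read in the same way: 11 of the 12 apical progenitor markers and 8 of the 9 interneuron markers above 20 CPM were lower in all 8 libraries, and both such Cajal-Retzius markers were as well. Of the 4 striatal and ventral markers above 20 CPM, 2 were lower in all 8 libraries and 1 was higher, Meis2, a homeobox factor, with a mean of 2681 CPM against 1750 (log2 0.61). With Meis2 the striatal and ventral list summed to a median of 2860 CPM in the migrating neurons and 1954 in all other nuclei, and was higher in 7 of 8 libraries.

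The 20 genes outside the rule that led the population were headed by guidance receptors. Nrp2 and Nrp1, the neuropilin co-receptors of class 3 semaphorins, had median log2 differences of 2.36 and 2.14 against all other nuclei, with mean levels of 88.6 and 911 CPM against 17.1 and 206. Sema6d, a transmembrane semaphorin (2.01), and Plxna4, a plexin that signals for neuropilins (1.86), stood beside them. The vesicular glutamate transporter Slc17a6 (1.95), the proneural factor Neurod1 (1.83), cadherin 8 (1.72), the sodium channel Scn1a (1.70) and the phosphatase Ptprk (1.65) followed. After them came Fgf11 of the fibroblast growth factor family (1.65), synapsin 2 (1.61), the Wnt receptor Fzd1 (1.52) and the somatostatin receptor Sstr2 (1.51). At the other end stood Nrxn3, a presynaptic adhesion molecule, at -5.54.

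**Figure D1:**
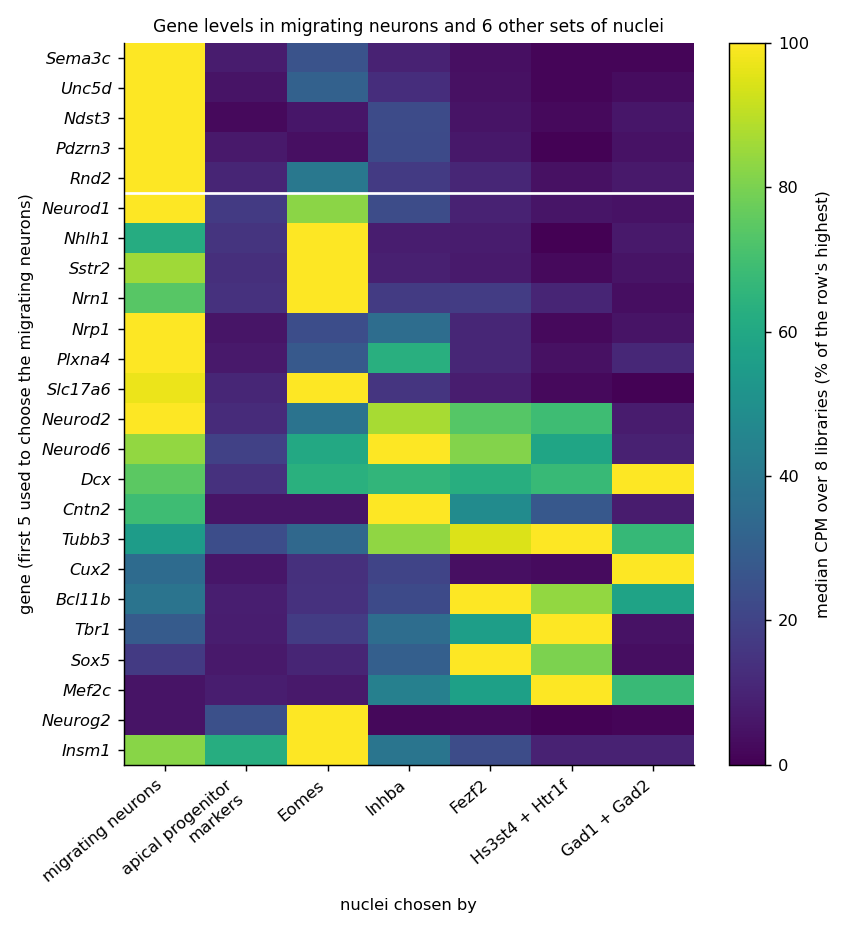
Median CPM over 8 libraries of 24 genes (rows) in migrating neurons and in 6 other sets of nuclei (columns), each row scaled to its highest set. The first 5 rows, above the white line, chose the migrating neurons. Nrp1, Plxna4 and Neurod2 were highest in that population, Neurog2, Nhlh1 and Sstr2 in the Eomes set, and Cntn2 in the Inhba set.

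To place the population on the path from progenitor to projection neuron, 6 other sets of nuclei were chosen by 1 kind of marker each: 4459 by apical progenitor genes (Sox2, Pax6, Hes5, Slc1a3, Fabp7), 1257 by Eomes, 1234 by Inhba (callosal), 4161 by Fezf2 (subcerebral), 1287 by Hs3st4 or Htr1f (corticothalamic) and 1286 by Gad1 or Gad2 (interneurons). Neurog2, which starts neurogenesis, had a median of 307 CPM in the apical set, 1258 in the Eomes set and 66.3 in migrating neurons. Insm1, a factor of basal progenitor formation, stood at 225, 362 and 298 CPM in the same order. Neurog2 was thus lower in migrating neurons than in both sets in every library, while Insm1 stayed above the Fezf2 set, where it had 84.0 CPM.

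Genes of the first postmitotic steps were shared with the Eomes set. Neurod1 had a median of 194 CPM in migrating neurons (158 to 242 over libraries), 161 in the Eomes set (126 to 276), and 45.2 or less in the Inhba, Fezf2, corticothalamic and interneuron sets. Sstr2 had 368 CPM against 429, and Slc17a6 205 against 211, with ranges that overlapped between both sets. Nhlh1, a basic helix-loop-helix factor of newborn neurons, and Nrn1, a secreted neurite growth protein, had 30.3 and 435 CPM in migrating neurons and 49.1 and 589 in the Eomes set.

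Nrp1, Plxna4 and Cntn2 were higher than in that set. Nrp1 had 717 to 1055 CPM in migrating neurons over the libraries, 143 to 289 in the Eomes set and 232 to 464 in the Inhba set, so the ranges did not overlap. Plxna4 had 283 to 570 CPM, against 57.1 to 197 in the Eomes set and 216 to 471 in the Inhba set, the latter overlapping. Cntn2, an adhesion molecule of the immunoglobulin family, was at 56.1 CPM in the Eomes set, 667 in migrating neurons and 966 in the Inhba set.

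Several general neuronal genes stood near their levels in the projection neuron sets. Neurod2 had a median of 954 CPM, the highest of the sets compared, and Neurod6 1261 CPM beside 1222 in the Fezf2 set and 1504 in the Inhba set. The microtubule protein Dcx had 630 CPM, against 555 in the Inhba set and 120 in the apical set. Tubb3 was at 777 CPM, between the Eomes set (478) and the Inhba set (1175). Dab1, the intracellular adaptor of reelin signalling, had 90.6 CPM, well under the Inhba set (416), while the reelin receptor Lrp8 was at 335 CPM against 209.

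Of 26 projection neuron identity factors, 11 were higher and 8 lower in all 8 libraries than in all other nuclei, against 11.5% and 15.9% of all genes. The 3 described first were chosen after their values were seen, and were lower than in the Inhba, Fezf2 and corticothalamic sets. Mef2c, a factor of maturing neurons, had a median of 147 CPM in migrating neurons and 1176, 1533 and 2699 in the Inhba, Fezf2 and corticothalamic sets. Sox5 had 325 CPM against 581, 1911 and 1533 in the same sets, and Rorb, a layer 4 factor, 41.4 against 134, 619 and 645. Since nuclei with Fezf2, Hs3st4, Htr1f or Inhba were excluded, part of this contrast follows from the rule.

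Bcl11b had a median of 337 CPM in migrating neurons (283 to 472 over libraries), above the Eomes set (123) and below the Fezf2 set (871), with 196 CPM in the Inhba set. As deposited, a Bcl11b UMI was found in a median of 50.4% of migrating neurons, and with each nucleus thinned to 1000 UMIs in 27.96%. Thinning left out 3 migrating neurons of WT saline, 17 of WT MIA, 17 of Csf1r-null saline and 7 of Csf1r-null MIA that were too shallow. The share moved with depth, so a nucleus without a UMI cannot be read as lacking the gene.

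Thinned shares were read beside nuclei that should lack a gene. In nuclei chosen by Gad1 or Gad2 (median depth 2332.5 UMIs, against 2813.25 in migrating neurons), the median share with Neurod1 was 0.105% and with Neurod2 4.76%, against 17.1% and 58.2% in migrating neurons. As deposited, the shares were 2.05% and 10.2% against 32.4% and 84.2%. Bcl11b, which interneurons express, was found in 37.5% of that set and in 5.91% of the apical set, against 27.96% of migrating neurons.

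Migrating neurons with a Neurod1 UMI were set beside those without, as a description with no test. In the nuclei as deposited, Cntn2 CPM was lower with Neurod1 in all 8 libraries (median log2 -0.76), as were the adhesion molecules Ntm (-1.42) and Tenm2 (-0.87), the phosphatase Ptprz1 (-1.11), which apical progenitors also express, the transcriptional corepressor Runx1t1 (-1.37) and the neuronal polarity protein Shtn1 (-0.78). The chemokine Cxcl12 (1.13), the kinase Cdk6 (1.10), Syn2 (0.60), Fgf11 (0.57), the ephrin receptor Epha4 (0.57) and the glypican Gpc6 (0.55) were higher in all 8 libraries. All genes named so far in this split were picked among those with 1 direction in all 8 libraries. Their shared direction is therefore no evidence. Of the genes that chose the apical set, Fabp7 was higher with Neurod1 in all 8 libraries (median log2 0.426), unlike Ptprz1. Sox2 (0.642) was higher in 6 libraries, Pax6 (0.526) and Hes5 (0.274) in 5 each, and Slc1a3 (-0.181) in 4. Eomes was higher with Neurod1 in all 8 libraries. The nuclei with Neurod1 numbered 56 to 144 per library and were slightly deeper, with a median over libraries of 2955.5 UMIs against 2643.5.

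The gene families of migration were then followed member by member against all other nuclei. By the rule, nuclei with Fezf2, Hs3st4, Htr1f, Inhba, Gad1 or Gad2 lie only among those others. Part of the differences in this family and the next ones therefore follows from the rule. Of 29 guidance receptors and ligands with at least 20 CPM, 13 were higher in all 8 libraries and 8 lower, against 11.5% and 15.9% of all genes. Their median log2 difference was 0.40, where the median of all genes was -0.03. Beside Nrp1, Nrp2, Sema6d and Plxna4, the higher ones included Robo2, a Slit receptor (1.41), Slit2 itself (1.41), Epha3 (1.23), Plxna2 (1.00), Epha5 (0.92) and Efnb2, an ephrin ligand (0.88). Robo1 (-1.37), Ephb1 (-3.42) and Sema6a (-2.26) were lower in all 8. Robo1 and Robo2 thus lay on opposite sides.

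Adhesion molecules were split evenly, with 10 of 26 higher and 10 lower in all 8 libraries, where 11.5% of all genes were higher and 15.9% lower. Cdh8 (1.72), Nfasc (1.15), Tenm4 (0.87), Flrt1 (0.80), Cdh4 (0.69) and Flrt3 (0.65) were among the higher, and Cdh13 (-2.43), Tenm1 (-2.21), Nrcam (-1.17) and Cdh11 (-1.11) among the lower. Of the heparan sulfate enzymes and carriers, a family to which the marker Ndst3 belongs, 4 of 16 were higher, led by the glypican Gpc6 (1.17) and the sulfotransferase Hs3st1 (0.99), and 4 lower. Its relative Ndst1 differed by 0.22, with libraries on both sides of 0.

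Of 27 cytoskeletal genes 5 were higher in all 8 libraries and 8 lower, where 11.5% of all genes were higher and 15.9% lower. The higher ones included Lzts1 (0.53), Dcx (0.48) and the kinesin Kif21a (0.44), and the lower ones Tubb2a (-2.10), Mapt (-1.91) and Stmn2 (-1.04). Of 19 channels and receptors of immature neurons 5 were higher, led by the AMPA receptor subunit Gria2 (0.87), and 10 lower, led by the kainate receptor Grik3 (-4.14) and the NMDA receptor subunit Grin2b (-3.99).

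The transcription factors of projection neuron identity fell on both sides as well. Of 26, 11 were higher and 8 lower in all 8 libraries, against 11.5% and 15.9% of all genes. Lhx2 (1.24), Cux2 (1.14), Pou3f3 (0.94), Pou3f2 (0.92), Pou3f1 (0.91) and Cux1 (0.84), most of them factors of upper layer neurons, were higher. Bcl11b (-0.38), Nfia (-0.48), Tle4 (-1.05), Sox5 (-1.43), Rorb (-2.89) and Mef2c (-2.93) were lower. Cux2 was also high in nuclei chosen by Gad1 or Gad2 (778 CPM), so its level did not separate migrating neurons from interneurons.

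The share of nuclei that were migrating neurons was compared between groups. It was 6.35% and 5.72% in WT saline, 6.25% and 5.40% in WT MIA, 6.54% and 3.46% in Csf1r-null saline, and 7.67% and 4.82% in Csf1r-null MIA. In every group replicate 1 was above replicate 2, and the groups overlapped. MIA libraries averaged 6.04% ± 1.23 and saline libraries 5.52% ± 1.42 (SD, n = 4 each), and a two-sided exact permutation test of labels within genotype gave p = 0.611 (adjusted p = 0.833 over 8 tests).

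Csf1r-null libraries averaged 5.62% ± 1.86 and WT libraries 5.93% ± 0.448 (SD, n = 4 each, two-sided exact permutation test within treatment, p = 0.833). The design's 36 permutations can give no p under 0.0556, so it cannot pass 0.05. Without the libraries labelled WT MIA 2 and Csf1r-null saline 2 the differences were -0.0420 percentage points for MIA and 0.252 for genotype. Thinned to 1000 UMIs the shares were 0.870% to 1.68%, with 4.54% of WT saline nuclei, 7.04% of WT MIA, 20.8% of Csf1r-null saline and 9.47% of Csf1r-null MIA left out as too shallow.

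**Figure D2:**
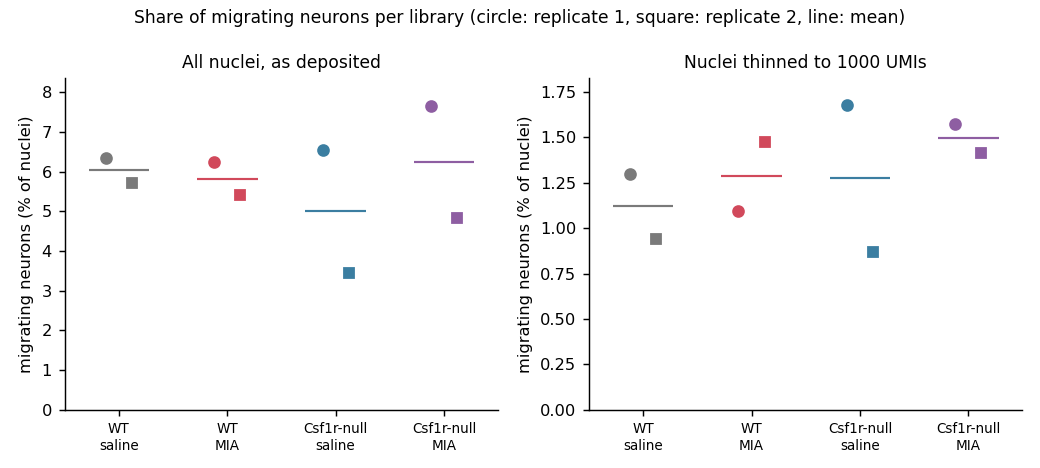
Migrating neurons as a percentage of nuclei in each library by group, as deposited (left) and with every nucleus thinned to 1000 UMIs before the rule was applied (right); circles are replicate 1, squares replicate 2 and lines the mean of 2 libraries. As deposited the groups overlap and every replicate 1 lies above its replicate 2. After thinning, both Csf1r-null MIA libraries (1.57% and 1.42%) lie above both WT saline libraries (1.30% and 0.942%), and the other groups overlap.

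The share of migrating neurons with Neurod1 after thinning was compared in the same way. It was 18.6% ± 1.83 in WT and 15.1% ± 2.00 in Csf1r-null libraries (SD, n = 4 each, exact permutation p = 0.111, adjusted p = 0.296 over 8 tests). For MIA it was 16.5% ± 1.70, against 17.2% ± 3.47 for saline (SD, n = 4 each, exact permutation p = 0.722). Neither passed. The libraries labelled WT MIA 2 and Csf1r-null saline 2 had 17.9% and 16.5%, and these shares were not tested without them. Thinning is random: these shares come from another draw than the 17.1% given above, and in that other draw the same libraries had 15.0% and 14.4%.

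Gene levels were compared between groups on the UMIs summed over the migrating neurons of each library, with edgeR's quasi-likelihood test over 9189 genes and 1 model for all 4 groups. No gene passed an adjusted p of 0.05 for MIA against saline in WT (0.0% of genes called) or in Csf1r-null embryos (0.0%), for the difference between these responses (0.0%), for MIA averaged over genotypes (0.0%) or for genotype averaged over treatments (0.0%). At an unadjusted p under 0.05, edgeR gave 735, 94, 481, 272 and 353 genes in these comparisons. Without any difference, a share of about 0.05 of the 9189 genes would reach this cutoff, so these counts are no evidence by themselves. These unadjusted counts moved with single libraries: WT gave 1182 without WT saline 1, 330 without WT saline 2 and 463 without WT MIA 2, and Csf1r-null gave 208 without Csf1r-null saline 1 and 351 without Csf1r-null MIA 1. The difference gave 908 and 251 without WT saline 1 and 2, and 986 and 219 without Csf1r-null MIA 1 and 2. Treatment gave 496 without WT saline 1, 169 without Csf1r-null saline 2, and 172 and 574 without Csf1r-null MIA 1 and 2. Genotype gave 653 without WT saline 1, 203 without WT MIA 2 and 619 without Csf1r-null MIA 2. DESeq2 called 0 in each, with 338, 17, 200, 74 and 109 genes at an unadjusted p under 0.05.

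Libraries with the same replicate number deviated together, so a fit with the replicate number as a block was also made. With the replicate block, 104 genes passed in WT: 96 were lower after MIA (1.04% of genes called) and 8 higher (0.0871%). None passed in Csf1r-null embryos, with 195 at an unadjusted p under 0.05, and none for the difference between genotypes (0.0% called with the block), with 802. With all 8 libraries, a gene that passed in WT is therefore not shown to respond differently in null embryos. This count moved with the libraries: for the difference between genotypes the block called 57 genes without WT saline 1 (50 lower and 7 higher), 1 without WT saline 2, and 4, all higher, without the libraries labelled WT MIA 2 and Csf1r-null saline 2. Without the libraries labelled WT MIA 2 and Csf1r-null saline 2, a fit that treats the lone WT MIA library as varying like the others, the block gave 19 genes in WT, of which 17 were among the 104. That is 16.3% of the 104. Of the genes described next, Tuba1a (log2 -0.69, edgeR adjusted p = 0.00985), Slc25a5 (-1.004, 0.0164), Psma5 (-1.04, 0.0286), Cst3 (-0.97, 0.00394) and Flrt1 (1.03, 0.0102) were called in that fit. Tubb3 (log2 -0.46, edgeR adjusted p = 0.444), Stmn1 (-0.45, 0.376), Tubb2b (-0.50, 0.289), Cdc42 (-0.60, 0.341), Atp5c1 (-0.74, 0.168), Psmb6 (-0.64, 0.300), Zfhx2 (0.78, 0.0642) and Kcnq1ot1 (0.47, 0.440) were not.

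The 96 lower genes had a median log2 change of -0.92 and a median of 0.11 in Csf1r-null embryos. In 62 of them both WT saline libraries lay above all 6 other libraries, a pattern found in 673 of all genes (7.32%), and 94 were lower after MIA within both replicate numbers. The call rested on this contrast, so these counts describe the genes and support nothing. The count moved with 1 WT saline library: without WT saline 1 the block called 200 genes in WT, 74 of them among the 104, and without WT saline 2 it called 15, of which 10 were.

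In the list of cytoskeletal and nuclear movement genes, 3 tubulins and Stmn1 were called lower with the block. Tuba1a, the main alpha-tubulin of migrating neurons, had 6575 and 9171 normalized CPM in WT saline, 4138 and 3967 in WT MIA, 3852 and 3583 in Csf1r-null saline, and 3786 and 5004 in Csf1r-null MIA. Both WT saline libraries lay above the other 6, and WT MIA lay at the level of the null libraries. The gene lies on chromosome 15 of mm10, at 98949837 to 98953703. The WT log2 change was -0.96 (SE 0.22, edgeR adjusted p = 0.565), or -0.94 (SE 0.18, edgeR adjusted p = 0.0114) with the replicate block, and 0.24 (SE 0.22) in Csf1r-null embryos.

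Tubb3 had 1094 and 1559 normalized CPM in WT saline, 784 and 687 in WT MIA, 730 and 696 in Csf1r-null saline, and 687 and 1055 in Csf1r-null MIA. The microtubule destabilizer Stmn1 had 3191 and 4705, 2279 and 2123, 2248 and 2483, and 1986 and 3258 normalized CPM in the same order. In both genes Csf1r-null MIA 2 was the highest library outside WT saline, and in Stmn1 it lay above WT saline 1. With the block their edgeR adjusted p were 0.0375 and 0.0319, and that of Tubb2b was 0.0197.

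These 4 were the only ones called, all lower (1.04% of all genes), among 27 tested of 30 cytoskeletal and nuclear movement genes, whose median WT change was -0.08 (all genes 0.01). At an unadjusted p under 0.05, 7 were lower, against 5.64% of all genes, and 1 higher, against 2.36%. Without WT saline 2 the count of lower genes was 2, and without the libraries labelled WT MIA 2 and Csf1r-null saline 2 it was 1, where the median turned to 0.02. In the migrating neurons the list summed to 19930 and 22887 CPM in WT saline and to 13814 to 17271 in the other groups. In all other nuclei it summed to 23421 and 23733 CPM in WT saline and to 15990 to 20170 in the other groups. Dcx, which stabilizes microtubules in migrating neurons, had 620 and 478 normalized CPM in WT saline and 734 and 638 in WT MIA, a log2 change of 0.32 (SE 0.23). The small GTPase Cdc42, which acts on the actin cytoskeleton, had 268 and 366 normalized CPM in WT saline, 173 and 162 in WT MIA, 209 and 170 in Csf1r-null saline, and 170 and 252 in Csf1r-null MIA (edgeR adjusted p = 0.0293 with the block).

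Genes of mitochondrial ATP production and of the proteasome held the most calls, 9 each. Both lists were chosen with earlier results of these libraries known, so their counts beside those of all genes are no independent evidence. All 77 tested of 78 nuclear genes of oxidative phosphorylation had a WT change below 0, with a median of -0.67 against 0.01 for all genes, and 43 were lower at an unadjusted p under 0.05, against 5.64% of all genes. With the block 9 were called, all lower, against 1.04% of all genes: Atp5c1, Atp5f1 and Atp5j of ATP synthase, Sdhb of complex II, Uqcrc2 and Cyc1 of complex III, Cox5a and Cox6b1 of complex IV and Ndufc2 of complex I. None of these 9 was called without the libraries labelled WT MIA 2 and Csf1r-null saline 2, with edgeR adjusted p from 0.168 (Atp5c1) to 0.831 (Cox6b1) with the block. In Csf1r-null embryos the median was 0.10, without a direction shared by the replicates. Their summed level was 12070 and 17301 CPM in WT saline, 10317 and 9516 in WT MIA, 10416 and 10216 in Csf1r-null saline, and 9043 and 13128 in Csf1r-null MIA.

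In that sum Csf1r-null MIA 2 lay above WT saline 1, so the groups overlapped. Atp5c1 had 211 and 319 normalized CPM in WT saline and 128 and 134 in WT MIA, with a log2 change of -1.01 (SE 0.27), and edgeR adjusted p = 0.0161 with the block. Slc25a5, the mitochondrial carrier that exchanges ADP for ATP, had the smallest p of the WT comparison. Slc25a5 (chromosome X of mm10, 36795651 to 36798807) had 185 and 211 normalized CPM in WT saline, 90.9 and 68.0 in WT MIA, 106 and 93.4 in Csf1r-null saline, and 110 and 136 in Csf1r-null MIA.

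The WT log2 change of Slc25a5 was -1.30 (SE 0.24, edgeR adjusted p = 0.565), or -1.28 (SE 0.22, edgeR adjusted p = 0.00445) with the block, and 0.29 (SE 0.25) in null embryos. The difference between genotypes was -1.58 (SE 0.35, edgeR adjusted p = 0.913, or 0.122 with the block), so it was not called. Without WT saline 1 it was -1.69 with the block, in a fit that leaves 1 WT saline library. Cst3, a secreted protease inhibitor, also had both WT saline libraries above the other 6, with 420 and 548 normalized CPM, and 206 and 229 in WT MIA.

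The proteasome, which degrades ubiquitin-tagged proteins, held as many. Of 33 subunits tested, 31 were below 0 in WT, with a median of -0.47 (0.12 in Csf1r-null embryos, where it also turned between replicates). At an unadjusted p under 0.05, 16 were lower (5.64% of all genes), and with the block 9 were called lower (1.04% of all genes), all subunits of the core particle (Psma2, Psma4, Psma5, Psma6, Psma7, Psmb2, Psmb3, Psmb5 and Psmb6). Only Psma5 of these 9 was called without the libraries labelled WT MIA 2 and Csf1r-null saline 2, and the edgeR adjusted p of the other 8 ran from 0.170 (Psma2) to 0.821 (Psmb2) with the block. Psma5 had 128 and 213 normalized CPM in WT saline, 64.6 and 83.4 in WT MIA, 90.3 and 70.1 in Csf1r-null saline, and 80.5 and 113 in Csf1r-null MIA, a WT log2 change of -1.21 (SE 0.29, edgeR adjusted p = 0.0114 with the block).

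Psmb6 had 222 and 356 normalized CPM in WT saline, 142 and 151 in WT MIA, 137 and 138 in Csf1r-null saline, and 139 and 230 in Csf1r-null MIA, the last above WT saline 1. Summed over the 33 subunits, WT saline had 5067 and 6071 CPM and the other 6 libraries 3720 to 4708. Both WT saline libraries were also the highest outside the migrating neurons, where the subunits summed to 5318 and 5541 CPM in WT saline and to 3799 to 4564 in the other 6. For oxidative phosphorylation the sums in all other nuclei were 13276 and 15782 CPM in WT saline and 9395 to 12798 elsewhere.

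These medians and counts depended on single libraries. The 43 lower oxidative phosphorylation genes were 3 without WT saline 2 and 11 without the libraries labelled WT MIA 2 and Csf1r-null saline 2, and the 16 lower proteasome genes were 4 and 7. Without WT saline 2 the WT median of oxidative phosphorylation was -0.25, and within replicate numbers it was -0.281 for replicate 1 and -0.998 for replicate 2. For the proteasome the medians were -0.33 without WT saline 2, and -0.39 and -0.72 within replicates 1 and 2. The 77 cytosolic ribosomal protein genes tested of 80 had a WT median of -0.38, but 0.17 without WT saline 2, and 0.25 and -0.89 within the replicates, so their direction was not the same in both. None of them was called with the block. Without the libraries labelled WT MIA 2 and Csf1r-null saline 2 the medians were -0.63, -0.59 and -0.27. In Csf1r-null embryos the median of oxidative phosphorylation was -0.18 within replicate 1 and 0.33 within replicate 2, 0.39 without Csf1r-null MIA 1 and -0.20 without Csf1r-null MIA 2. That of the proteasome was -0.09 and 0.30 within the replicates, and 0.33 and -0.06 without these libraries. Ribosomal proteins gave -0.24 and 0.39 within the replicates.

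**Figure D3:**
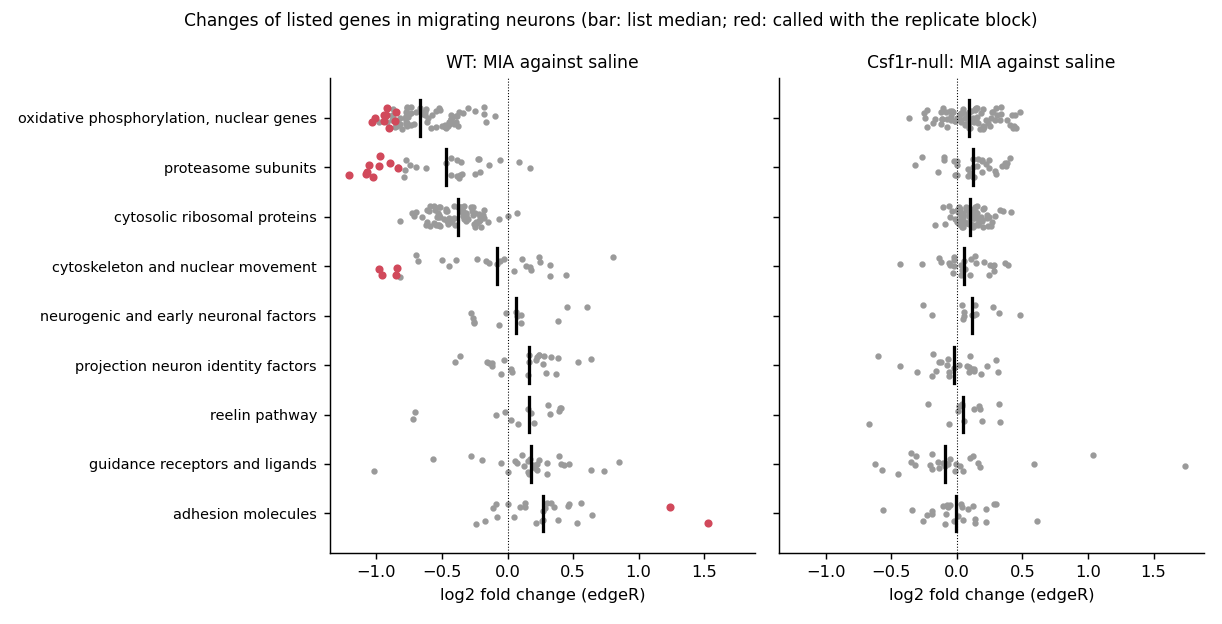
Log2 change after MIA of each tested gene of 9 lists in migrating neurons of WT (left) and Csf1r-null (right) embryos, from edgeR; bars are list medians and red points genes called with the replicate block. All 77 oxidative phosphorylation genes and 31 of 33 proteasome genes lie left of 0 in WT, with list medians of -0.67 and -0.47, and the medians in Csf1r-null, which turn between replicates, are 0.10 and 0.12.

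Markers of other cells and signs of RNA quality were read beside these groups. Interneuron markers in all other nuclei summed to 1190 CPM in WT saline 1 and to 255 to 419 in the other 7 libraries, and in the migrating neurons to 69.5 and 51.3 CPM in WT saline against 22.7 to 43.4 elsewhere. Striatal and ventral markers in all other nuclei summed to 3433 CPM in WT saline 1 and to 1567 to 2165 in the other 7, and WT saline 1 held 491 of the 1286 nuclei chosen by Gad1 or Gad2. Red blood cells hold globin transcripts at high levels. In the migrating neurons these transcripts summed to 409 and 369 CPM in WT saline, 134 and 253 in WT MIA, 205 and 121 in Csf1r-null saline, and 120 and 229 in Csf1r-null MIA. Of 7 globins 4 were tested, each with both WT saline libraries above the other 6 (7.32% of all genes), and 3 were called lower with the block (1.04% of all genes), namely Hba-a1, Hba-a2 and Hbb-bs. Without the libraries labelled WT MIA 2 and Csf1r-null saline 2 these 3 were still called (edgeR adjusted p = 0.00394, 0.0112 and 0.00135 with the block), and the median of the 4 globins went from -1.13 to -1.67. Without WT MIA 1 the globin median was -0.67, and within replicates 1 and 2 it was -1.60 and -0.68. The source of the globin transcripts in these nuclei was not tested, nor was the part of other cells and of free RNA in the other differences.

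In the migrating neurons, microglial markers had 0 to 7 UMIs per library, with 8 to 12 of the 12 genes at 0. Vessel markers summed to 5.13 to 18.4 CPM, Cajal-Retzius markers to 7.69 to 14.8 CPM and apical progenitor markers to 520 to 806 CPM. The globin sum in all other nuclei was 553 and 386 CPM in WT saline and 200 to 432 in the other 6, so there the groups overlapped. Mitochondrial transcripts in the migrating neurons summed to 160 and 573 CPM in WT saline, 446 and 168 in WT MIA, 439 and 238 in Csf1r-null saline, and 302 and 400 in Csf1r-null MIA, which did not separate the groups. Of 8 nuclear long noncoding RNAs 4 were tested, with a WT median of 0.39 (0.30 without both doubted libraries), and 1 was called higher with the block (Kcnq1ot1), against 0.0871% of all genes.

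Adhesion molecules stood on the other side. Of 26 tested of 30, 21 were above 0 in WT, against 4673 of all 9189 genes. The median was -0.01 in Csf1r-null embryos (0.09 and -0.19 within replicates 1 and 2). In WT it was 0.27 (0.37 without WT saline 1, 0.18 without WT saline 2 and 0.30 without both doubted libraries). At an unadjusted p under 0.05, 3 were higher (2.36% of all genes), and with the block 2 were called higher (0.0871% of all genes), Flrt1 and Tenm1. In the migrating neurons the list summed to 5300 and 4228 CPM in WT saline and to 4997 to 6375 in the other groups, which overlapped. In all other nuclei the sums were 4917 and 4740 CPM in WT saline and 5021 to 6579 in the other groups. Flrt1 encodes a leucine-rich repeat protein of the family that binds latrophilins and UNC5 receptors, and Unc5d, one such receptor, is among the genes that chose the population. It is 1 of 10 genes that the study named for these cells from these libraries, so its direction is not independent evidence.

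Flrt1 (chromosome 19 of mm10, 7092001 to 7105729) had 80.5 and 73.7 normalized CPM in WT saline, 200 and 164 in WT MIA, 133 and 65.4 in Csf1r-null saline, and 221 and 88.8 in Csf1r-null MIA. Within each replicate number and genotype the MIA library was the higher. The WT log2 change was 1.24 (SE 0.38, edgeR adjusted p = 0.565), or 1.24 (SE 0.24, edgeR adjusted p = 0.0114) with the replicate block. In Csf1r-null embryos it was 0.61 (SE 0.38), and the difference between genotypes was 0.63 (SE 0.54, edgeR adjusted p = 0.928, or 0.617 with the block), so a difference was not shown.

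Flrt1 was also the 1 gene called for MIA averaged over both genotypes with the block, at 0.92 (SE 0.17, edgeR adjusted p = 0.0286). Libraries and not dams were the units of this test, so MIA is not separated from differences between dams. In the fit without the block the edgeR adjusted p of Flrt1 was 0.999. With the libraries labelled WT MIA 2 and Csf1r-null saline 2 left out and the block kept, it was 0.80 (SE 0.15, edgeR adjusted p = 0.000367) in a fit with 1 residual degree of freedom per gene.

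Tenm1, a teneurin that binds latrophilins, had 11.7 and 18.4 normalized CPM in WT saline, 28.9 and 60.2 in WT MIA, 17.9 and 30.4 in Csf1r-null saline, and in Csf1r-null MIA a low of 23.0 with the other library below WT MIA 1. WT MIA 2 stood alone at the top, and without the libraries labelled WT MIA 2 and Csf1r-null saline 2 the call was lost (log2 1.02, SE 0.49, edgeR adjusted p = 0.614 with the block). Tenm4 had 302 and 295 normalized CPM in WT saline, 504 and 428 in WT MIA, 471 and 416 in Csf1r-null saline, and 464 and 311 in Csf1r-null MIA.

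Both WT saline libraries of Tenm4 lay below the other 6, a pattern of 507 genes (5.52%). Its WT change of 0.64 (SE 0.24) was not called with or without the block (edgeR adjusted p = 0.107 and 0.572), nor without the libraries labelled WT MIA 2 and Csf1r-null saline 2 (0.60, edgeR adjusted p = 0.239 with the block), and the difference between genotypes was 0.84 (SE 0.34). Unc5d itself had 633 and 536 normalized CPM in WT saline and 681 and 715 in WT MIA. The WT change of Unc5d was 0.26 (SE 0.21), with groups close together. Since Unc5d helped choose the nuclei, its level is not independent of the rule. The rule limits the marker sum and not each gene: Rnd2, another marker, ran from 324 to 850 normalized CPM over the libraries.

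**Figure D4:**
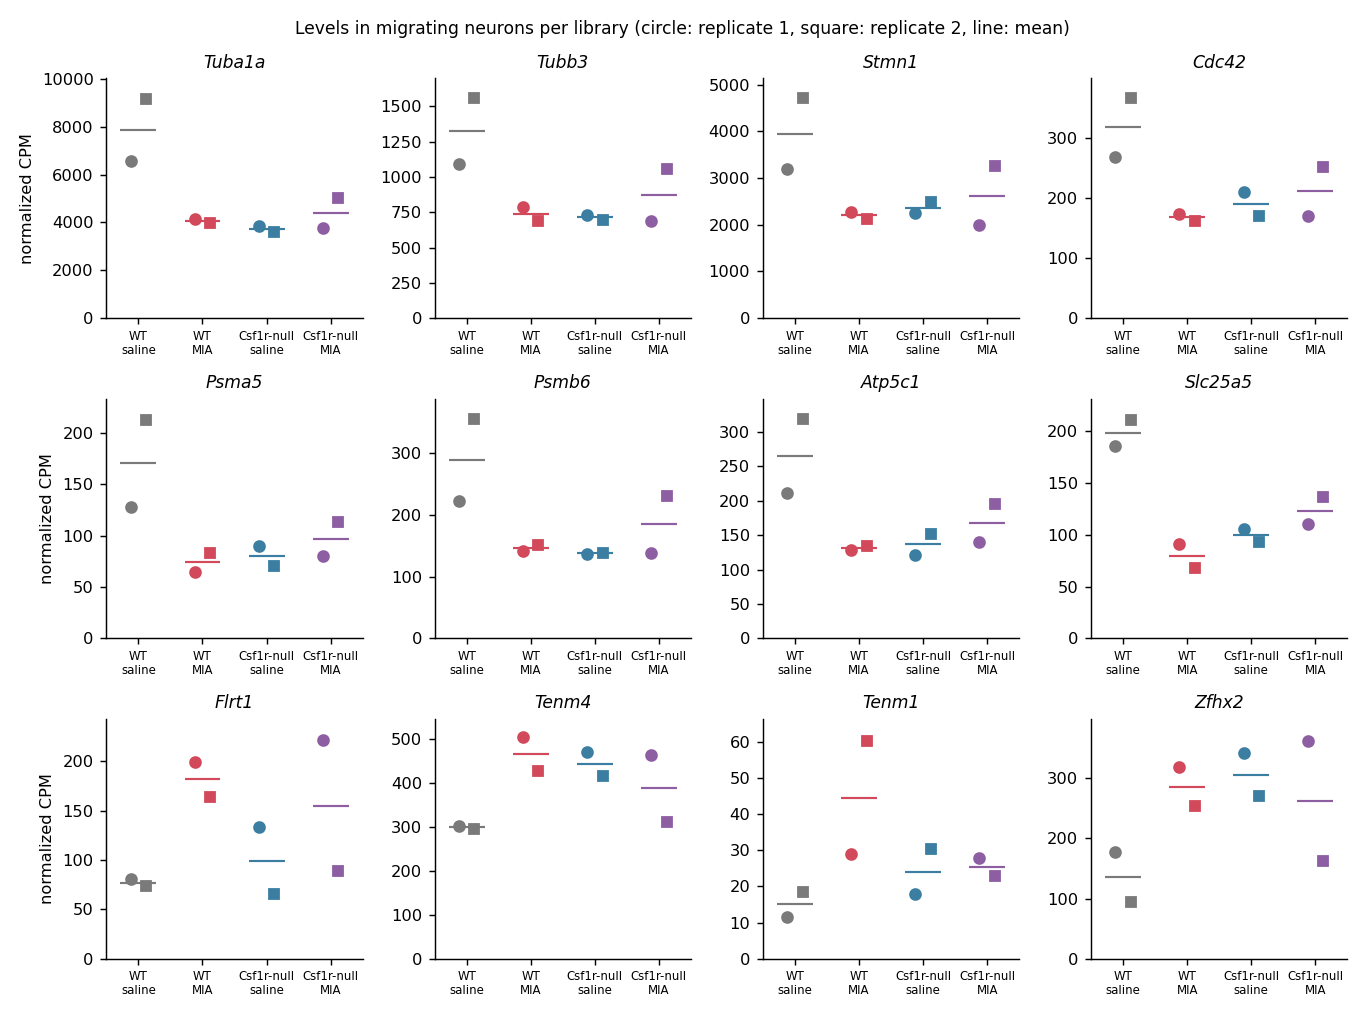
Normalized CPM of 12 genes in migrating neurons of each library by group; circles are replicate 1, squares replicate 2 and lines the mean of 2 libraries. Tuba1a, Tubb3, Cdc42, Psma5, Atp5c1 and Slc25a5 are highest in both WT saline libraries, Tenm4 is lowest there, and Tenm1 is highest in WT MIA 2 (60.2).

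Of the 10 study genes, 8 were below 0 and 2 above in WT (median -1.001, and 0.17 in Csf1r-null embryos), all 10 at an unadjusted p under 0.05, and 6 were called with the block: Flrt1 higher, against 0.0871% of all genes, and Psma6, Psmb2, Psmb6, Hba-a1 and Hba-a2 lower, against 1.04%. Without the libraries labelled WT MIA 2 and Csf1r-null saline 2 the calls of Psma6, Psmb2 and Psmb6 were lost (edgeR adjusted p = 0.544, 0.821 and 0.300 with the block), and those of Flrt1, Hba-a1 and Hba-a2 were not. Tenm4, Hbb-bt, Ppia and Tsg101 were not called. Since these genes were picked on the same libraries, their count is no independent evidence of direction.

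The other 6 genes called higher with the block were Zfhx2, its antisense transcript Zfhx2os, Kcnq1ot1, Spaca6, B430010I23Rik and Nhsl1. None of these 6 was called without the libraries labelled WT MIA 2 and Csf1r-null saline 2 (edgeR adjusted p from 0.0642 for Zfhx2 to 0.440 for Kcnq1ot1 with the block). Zfhx2, a zinc finger homeobox factor, had 178 and 95.0 normalized CPM in WT saline, 319 and 253 in WT MIA, 342 and 271 in Csf1r-null saline, and 363 and 163 in Csf1r-null MIA. Zfhx2 and Zfhx2os overlap, and reads of overlapping genes may be split between them. Kcnq1ot1, a nuclear noncoding RNA, had 575 and 519 normalized CPM in WT saline and 883 and 985 in WT MIA, within the 667 to 1100 range of the null libraries.

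Lists of neuronal identity and migration are given with their counts. Of 13 neurogenic and early neuronal factors, 25 identity factors, 14 reelin pathway genes, 18 heparan sulfate genes and 18 channels tested, none was past an unadjusted p of 0.05 in WT, where 5.64% of all genes were lower and 2.36% higher, and none was called with the block (1.04% lower and 0.0871% higher). The list medians were 0.06, 0.16, 0.17, 0.11 and 0.18. Neurod1 had 236 and 245 normalized CPM in WT saline and 184 and 219 in WT MIA, a log2 change of -0.26 (SE 0.24). Bcl11b had a log2 change of 0.29 (SE 0.24).

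Of 28 guidance genes 23 were above 0 in WT, against 4673 of all 9189 genes, with a median of 0.18 and -0.09 in Csf1r-null embryos (0.03 and -0.17 within replicates 1 and 2). At an unadjusted p under 0.05, 1 was higher, a share near the 2.36% of all genes. This was Nrp2, the leading gene of the population, with 72.0 and 72.3 normalized CPM in WT saline, 103 and 141 in WT MIA, 73.2 and 114 in Csf1r-null saline, and 89.2 and 52.6 in Csf1r-null MIA. Its change of 0.74 (SE 0.30, edgeR adjusted p = 0.573, or 0.149 with the block) was not called, and Nrp1 had a log2 change of 0.19 (SE 0.21). Of 18 cytokine and double-stranded RNA receptors 5 could be tested and of 22 interferon response genes 3, and none was called.

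In Csf1r-null embryos 49 genes were lower after MIA at an unadjusted p under 0.05 (0.533% of genes) and 45 higher (0.49%). The genes with the smallest p, none called, were Id4 (log2 -1.36, SE 0.39), an inhibitor of helix-loop-helix factors, Phospho2 (-1.35, SE 0.40), Zfp930 (1.53, SE 0.46), Sccpdh (-0.94, SE 0.30) and Stk3 (1.46, SE 0.48). Id4 had 35.8 and 23.4 normalized CPM in Csf1r-null saline and 11.4 and 13.2 in Csf1r-null MIA, against 22.1 to 28.6 in the WT libraries.

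Between genotypes, averaged over treatments, 2 genes were called with the replicate block. Bsg, a surface glycoprotein that carries lactate transporters to the membrane, had 387, 527, 246 and 360 normalized CPM in the WT libraries and 194, 201, 202 and 258 in the null ones, a log2 difference of -0.77 (SE 0.14, edgeR adjusted p = 0.0128). WT MIA 1 at 246 lay below Csf1r-null MIA 2, so the genotypes overlapped. Without the libraries labelled WT MIA 2 and Csf1r-null saline 2 it was -0.66 (SE 0.13, edgeR adjusted p = 0.0022 with the block, and 1.00 without it). The other gene, Gm10076, had 13.8, 262, 17.8 and 37.1 normalized CPM in the WT libraries and 38.2, 432, 18.4 and 562 in the null ones (edgeR adjusted p = 0.000274 with the block, and 0.00332 without the libraries labelled WT MIA 2 and Csf1r-null saline 2), and in each group replicate 2 lay above replicate 1.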

How the data were processed

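UMI counts per gene and nucleus were deposited by the authors as unnormalized 10x matrices of 3' libraries. The submitters' notes name Cell Ranger 3.1.0 and the file headers give 3.1.0 for replicate 1 and 6.0.1 for replicate 2, whose matrices were already filtered to nuclei. A barcode counted as a nucleus from 500 UMIs and 200 genes upwards, and the 30406 genes listed in all libraries were joined by Ensembl ID. Doublets were scored by Scrublet (scanpy 1.11.5) and kept: its automatic threshold marked 0.0% to 2.52% of nuclei, and removing the highest scores at 0.8% per 1000 nuclei, an alternative, took 0.671% to 4.85% of migrating neurons.

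UMIs were summed over the migrating neurons of each library and tested with edgeR 4.0.16 in R 4.3.3 (TMM, filterByExpr, quasi-likelihood, Benjamini-Hochberg over 9189 genes, adjusted p threshold 0.05), with DESeq2 1.42.0 as an alternative. The study tested single nuclei with NEBULA, not used here, and also tested sums over nuclei with DESeq2, the kind of fit that the DESeq2 alternative makes. Normalized CPM are edgeR's; CPM elsewhere are UMI counts per 1000000 of the same nuclei. Levels against other nuclei used a prior of 1 CPM. Each other set of nuclei met exactly 1 gate and lay outside the migrating neurons. The fit without the block was checked on simulated counts without a replicate effect, with a pass mark for treatment averaged over genotypes alone. The block fit was not checked in this way. Libraries of the same replicate number deviated together (correlations 0.310 to 0.379), which was taken as pairing; the number also stands for the software and barcode filter. Named genes were the 20 leading genes of at least 50 CPM, the genes of 27 lists, those with the smallest p in each comparison (up to 10 of those called, otherwise 5) and 10 that the study names; genes of the Neurod1 split, 3 identity factors described first and the genes called higher in WT outside these rules were chosen after their values were seen. The migrating neurons, lists and tests were chosen with earlier results of these data known. Coordinates come from GENCODE for mm10. Some genes and gene lists that were tested are not reported here.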

Additional observations from a re-analysis of the deposited data

Results flagged for a closer look

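In 43 measures of the migrating neurons the 8 libraries were searched within 4 sets of 4 (both genotypes and both treatments) for a library far from the other 3. Of 172 sets, 8 had one, and chance gives about 1 in 20.

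Among MIA libraries, Csf1r-null MIA 2 had 252 normalized CPM of Cdc42 (162 to 173 in the others) and an interferon response sum of 43.6 CPM (60.6 to 62.6 in the others). Among Csf1r-null libraries the same library had 1055 normalized CPM of Tubb3 (687 to 730). WT MIA 2, whose microglial transcripts go against its label, had 60.2 normalized CPM of Tenm1 among MIA libraries (23.0 to 28.9), and Csf1r-null MIA 1 summed to 269.9 CPM of cytokine and double-stranded RNA receptors (255 to 257). Among WT libraries, WT saline 2 was low in the interferon response sum, 53.9 CPM (60.6 to 60.8), and in vessel markers, 5.13 CPM (11.3 to 12.1). Among saline libraries, Csf1r-null saline 1 was high in apical progenitor markers, 806 CPM (631 to 658).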

How the results depend on the processing

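The count of genes called in WT was 0 in 14 of 20 settings, in Csf1r-null embryos in 19, for the difference between genotypes in 16, and for the averaged treatment and genotype comparisons in 15 each. With the replicate block the counts were 104 in WT, 1 for treatment and 2 for genotype. Without a filter on low counts they were 15 in WT (2 higher, 13 lower), 5 for the difference, 2 for treatment and 2 for genotype. Leaving out 1 library gave 0 to 1 in WT, the 1 without WT saline 2, and 0 elsewhere. Combinations chosen after seeing the data kept the replicate block: without the libraries labelled WT MIA 2 and Csf1r-null saline 2 it called 19 in WT, 2 in null, 4 for the difference, 10 for treatment and 26 for genotype, with 1 residual degree of freedom per gene. Without WT saline 1 it called 200, 57 for the difference, 1 for treatment and 4 for genotype, and without WT saline 2, 15, 1, 6 and 7. The cause was not tested. No direction turned for 14 single genes over 280 values. All of them but Tenm4 were called in some setting, so a stable direction was likely from their choice and supports nothing.

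The share difference of MIA against saline was -0.0420 percentage points without both doubted libraries and ran from -0.253 to 1.29 when 1 library was left out. That of Csf1r-null against WT became 0.148 in nuclei of at least 1000 UMIs, 0.183 after thinning and 0.252 without both doubted libraries, and ran from -1.08 to 0.463 when 1 was left out. Paired by replicate number, exact permutation p was 0.5 and 0.75. With 206 to 393 nuclei and 2 libraries per group, genes of few UMIs could not be tested.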
